A study of Homo sapiens with 24 samples.

Results

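The control oligos described here are 13 sequences printed on a human expression array whose identifiers begin with obsaracontrol. They are called plant controls as a working name, since no label or file states the species they were taken from. They were found by that identifier alone, among 39423 named sequences in all. The others are 39400 obshum40K probes and 10 human control sequences. Each plant control was printed 16 times on each array, which gave 208 plant spots among 20160 spots. The arrays also held 192 empty spots and 60 spots of the human controls.

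The arrays measured transcripts of HEK, an established human embryonic kidney cell line. Cells plated 24 h earlier received the ligand (50 uM of a DNA minor groove binding compound that the labels do not name) followed after 1 h by 2 Gy of radiation, the ligand alone, radiation alone, or no treatment, and RNA was taken 4 h later. All 4 groups were of the same line, and the amplified RNA of each was labelled with Cy3 and hybridised in a single colour. The plant and empty spots are listed for replicate numbers 1 and 2 of each treatment, on arrays lettered A and B. Both letters of one treatment and number were averaged into 1 sample, which gave 8 samples, 2 per treatment, on 16 arrays. No label says that the numbers were separate cultures, so the p-values reflect only how these samples scatter, and that scatter may be technical. The 8 arrays numbered 3 list 0 plant and 0 empty spots and were not used here.

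Control oligos against a distant organism are printed on expression arrays because human RNA should hold no transcript that matches them in full. Such spots then take up labelled RNA only by partial matches and by sticking to the spotted DNA, and their brightness marks the level below which a human probe cannot be told from unspecific signal. Empty spots carry no DNA and so show only the bare surface. The same oligos can instead serve as targets for added plant transcripts of known amount, and the labels mention no such addition. The files give no oligo letters for the 13 sequences, so none is shown.

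The plant controls were far brighter than the empty spots and somewhat dimmer than the typical human probe. Over the 8 samples the plant level, taken as the mean log2 intensity of the 13 sequences, stood 3.44 ± 0.30 log2 units above the median empty spot (SD, n = 8), a 10.9-fold difference. With an offset of 50 added to every value before log2, the difference was 2.15 log2 units. It stood 0.63 log2 units below the median obshum40K probe, at -0.63 ± 0.12 (SD, n = 8), or 0.646 times its intensity. Each direction held in 8 of 8 samples, with a two-sided exact sign-flip permutation p of 0.0078 for either difference, the smallest that 8 samples allow. Measured this way, the plant level lay among the dimmer human probes and well clear of the bare surface.

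On the arrays themselves the plant level ran from 126.04 to 467 intensity units, with a median of 317. The median empty spot ran from 16.8 to 37.2 and the median probe from 179 to 677. The 2 lowest plant levels were those of number 2 on letter B, at 137 after ligand and radiation and 126.04 after radiation alone. The matching values were 327 after the ligand and 371 in untreated cells. On letter A of number 2 the plant level was 171 after ligand and radiation, 173 after radiation, 384 after the ligand and 467 in untreated cells. The irradiated arrays of number 2 therefore lay below all other arrays in plant signal. In number 1 the plant level on letter A was 340 after ligand and radiation, 379 after the ligand, 382 after radiation and 382 in untreated cells. On letter B of that number it was 273, 308, 239 and 305 in the same order of treatments. The plant level followed the brightness of the array: its ratio to the median probe stayed between 0.564 and 0.734 on all 16 arrays, while its ratio to the median empty spot ran from 6.84 to 18.4.

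All 13 sequences lay above the empty spots and nearly always below the median probe. Of the 208 means of a sequence on an array, 208 exceeded the median empty spot, by 2.35 to 4.85 log2 units, and each also exceeded the 95th percentile of the empty spots of its array. Against the median probe 207 of the 208 means were lower. The exception was obsaracontrol#002 on the letter B array of number 2 after ligand and radiation, which lay 0.06 log2 units above the median probe. Single spots spread more widely. Of 3326 measured plant spots, 101 were at or below the 95th percentile of the empty spots of their array, with 13 of them on letter A arrays and 88 on letter B arrays, and 2 further plant spots were listed as not detected.

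Set among the human probes, the plant level lay in the lower part of their distribution. Between 15.7% and 23.4% of obshum40K probes were dimmer than the plant level of their array, with a median of 18.9% over 16 arrays. Few probes lay below the lower end of the plant spots: 0.569% to 1.88% of probes were dimmer than the 5th percentile of the plant spots. Nearly all probes cleared the bare surface, since 96.4% to 99.9% lay above the 95th percentile of the empty spots.

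A floor at the 95th percentile of the plant spots left a minority of human probes above it. That percentile ran from 266 to 1014 intensity units over the arrays, and 12.2% to 37.4% of probes exceeded it, with a median of 26.9%. The share was 25.5% and 21.1% in the samples given ligand and radiation (numbers 1 and 2, letters averaged), 32.8% and 23.5% after the ligand, 28.1% and 26.4% after radiation, and 35.01% and 21.1% in untreated cells. In each treatment this average over the letters was larger in number 1 than in number 2. For ligand and radiation letter A went the other way, at 27.3% in number 1 and 29.99% in number 2. Letter B was there at 23.6% and 12.2%, the lowest share of any array. Over the 8 arrays of their letter, 4061 probes (10.3%) exceeded this floor on every array, 21080 (53.5%) on none, and 14259 (36.2%) on some. The median share depended strongly on where the floor was set: it was 80.7% above the median plant spot, 59.9% above the brightest of the 13 sequences and 99.7% above the 95th percentile of the empty spots.

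The 10 human control sequences, printed 6 times each, are the other control set on the arrays. Their mean log2 intensity stood 2.86 ± 0.27 log2 units above the plant level (SD, n = 8 samples), or 7.25-fold, and was higher than the plant level in every sample. Of their spots, 53.3% to 78.3% exceeded the 95th percentile of the plant spots on an array.

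The 13 sequences differed little from each other. Averaged over the 8 samples, the brightest and the dimmest were 0.58 log2 units apart, a factor of 1.49. From bright to dim the order was obsaracontrol#002, #001, #003, #010, #005, #004, #011, #009, #008, #006, #012, #007 and #013. None of the 12 steps between neighbours in this order was larger than the spread of either sequence over the samples. The sequences share their arrays, so this spread is not that of the difference between 2 sequences, which was not tested. On single arrays the standard deviation among the 13 sequence means was 0.16 to 0.33 log2 units.

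The brightest was obsaracontrol#002, at -0.33 ± 0.15 log2 units relative to the median probe (SD, n = 8). On letter A its intensity was 428 and 198 after ligand and radiation in numbers 1 and 2, 453 and 424 after the ligand, 466 and 183 after radiation, and 405 and 496 in untreated cells. On letter B it was 343 and 194 after ligand and radiation in numbers 1 and 2, 381 and 469 after the ligand, 349.9 and 168 after radiation, and 371 and 495 in untreated cells. On either letter the irradiated arrays of number 2 were the low ones.

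The next, obsaracontrol#001, was almost level with it, at -0.34 ± 0.15 log2 units relative to the median probe (SD, n = 8). Its intensity on letter A was 417 and 222 after ligand and radiation in numbers 1 and 2, 464 and 458 after the ligand, 424 and 195 after radiation, and 456 and 539 in untreated cells. On letter B it was 329 and 178 after ligand and radiation in numbers 1 and 2, 392 and 436 after the ligand, 271 and 162 after radiation, and 396 and 473 in untreated cells. The same irradiated arrays were lowest here. Both sequences sat on average near the 33rd percentile of the human probes, at 33.3 and 32.9.

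At the other end, obsaracontrol#013 lay at -0.91 ± 0.22 log2 units (SD, n = 8), and on average only 11.1% of probes were dimmer. Its letter A intensities were 291 and 164 after ligand and radiation in numbers 1 and 2, 307 and 337 after the ligand, 324 and 161 after radiation, and 351 and 409 in untreated cells. Those on letter B were 193 and 124 after ligand and radiation in numbers 1 and 2, 187 and 262 after the ligand, 189 and 101 after radiation, and 224 and 311 in untreated cells. Letter B was the dimmer letter in all 8 samples. Next to it, obsaracontrol#007 lay at -0.87 ± 0.19 log2 units (SD, n = 8). It had on letter A 239.7 and 145 after ligand and radiation in numbers 1 and 2, 274 and 278 after the ligand, 283 and 151 after radiation, and 295 and 399 in untreated cells. It had on letter B 256 and 129 after ligand and radiation in numbers 1 and 2, 270.4 and 290.1 after the ligand, 227 and 119 after radiation, and 266 and 344 in untreated cells. The irradiated arrays of number 2 were lowest for this sequence too. Even these dimmest sequences were 8.97-fold and 9.19-fold above the median empty spot.

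The steadiest sequence was obsaracontrol#004, at -0.62 ± 0.04 log2 units relative to the median probe over the 8 samples (SD), and the least steady was obsaracontrol#012, at -0.82 ± 0.32. The intensity of obsaracontrol#012 on letter A was 253 and 127 after ligand and radiation in numbers 1 and 2, 245 and 419 after the ligand, 292 and 121 after radiation, and 275 and 459 in untreated cells. Its letter B intensity was 249 and 132 after ligand and radiation in numbers 1 and 2, 253 and 426 after the ligand, 212 and 106 after radiation, and 279.6 and 459.8 in untreated cells. The arrays of number 1 lay close together, while in number 2 the irradiated arrays were low and the others high. Relative to the median probe of the same arrays, its values in number 2 were -0.73 after ligand and radiation, -0.34 after the ligand, -0.90 after radiation and -0.36 in untreated cells, so the irradiated samples were lower there. In number 1 it was at -0.96 after ligand and radiation, -1.21 after the ligand, -1.0017 after radiation and -1.08 in untreated cells, where the irradiated samples were the higher ones.

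Another sequence differed between the numbers in the opposite sense. The intensity of obsaracontrol#005 on letter A was 419 and 157 after ligand and radiation in numbers 1 and 2, 557 and 294 after the ligand, 498 and 174 after radiation, and 601 and 425 in untreated cells. On letter B its intensity was 278 and 124 after ligand and radiation in numbers 1 and 2, 349 and 251 after the ligand, 247 and 114 after radiation, and 360.1 and 297 in untreated cells. On letter A of number 1 it was the brightest of the 13 sequences in each treatment except ligand and radiation, where obsaracontrol#002 was brighter. Relative to the median probe, obsaracontrol#005 was at -0.52 after ligand and radiation, -0.39 after the ligand, -0.50 after radiation and -0.34 in untreated cells of number 1. In number 2 it was at -0.62, -0.97, -0.58 and -0.73 in the same order, lower in all 4 treatments. Of the 13 sequences, 11 were higher in number 2 than in number 1 and the exceptions were obsaracontrol#005 and obsaracontrol#006.

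The order of the sequences was shared more within a replicate number than between numbers. Across the 13 sequences, which share their arrays, the Spearman correlation of levels was 0.84 in the median over 12 pairs of samples with the same number (0.59 to 0.95). For 4 pairs of samples that shared the treatment but not the number the median was 0.39 (0.21 to 0.70), and for 12 pairs that shared neither it was 0.49 (0.15 to 0.73). Between the letters, averaged over samples, the order correlated at 0.71. On letter A the copies of each sequence lay in 8 of the 48 runs of neighbouring spots, so sequences also differed in position. Measured against the probes of the same runs in place of all probes, the 13 sequences kept an almost equal range of 0.57 log2 units, and both orders correlated at 0.94.

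The plant level relative to the human probes separated by replicate number. In number 2 it was -0.53 ± 0.04 log2 units (SD, n = 4) and in number 1 -0.74 ± 0.04 (SD, n = 4). The 4 samples of number 2 lay between -0.59 and -0.49 and those of number 1 between -0.78 and -0.69, with no overlap. The difference of 0.21 had a two-sided exact permutation p of 0.0286, the smallest that 4 samples against 4 allow, in a comparison chosen after the values were seen. Relative to the empty spots the numbers did not separate, at 3.35 ± 0.37 in number 2 and 3.54 ± 0.23 in number 1 (SD, n = 4 each; exact permutation p = 0.400). The human probes were themselves less spread in number 2, with an SD of 0.91 to 1.05 log2 units on an array against 1.17 to 1.37 in number 1. The human controls also stood less far above the plant level there, at 2.60 to 2.71 log2 units in number 2 and 2.79 to 3.40 in number 1. The part of this narrower scale in the difference of 0.21 was not tested. What a number stands for is not stated.

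The first question of the design is whether the plant signal differed between the treatments. Relative to the median probe, the plant level after ligand and radiation was -0.69 and -0.49 log2 units in numbers 1 and 2. After the ligand alone it was -0.75 and -0.59, after radiation alone -0.72 and -0.52, and in untreated cells -0.78 and -0.50. All 4 groups overlapped, but each group spans both numbers, which differed by 0.21 in this measure. Within numbers 1 and 2, both treatments minus the ligand was 0.07 and 0.10, and radiation minus untreated was 0.06 and -0.02. Both treatments minus radiation was 0.03 and 0.03, and the ligand minus untreated was 0.03 and -0.09. The SDs and tests without a block given next do not take out the shift between numbers. Averaged over the ligand, irradiated samples were at -0.60 ± 0.12 and samples without radiation at -0.66 ± 0.13 (SD, n = 4 each), a difference of 0.05 with an exact permutation p of 0.543. Averaged over radiation, ligand samples were at -0.63 ± 0.11 and samples without ligand at -0.63 ± 0.14 (SD, n = 4 each), a difference of 0.0010 with an exact permutation p of 1. The interaction, the ligand difference with radiation minus the ligand difference without it, was 0.06 log2 units (exact permutation p = 0.686). The adjusted p was 0.857 for radiation and the interaction and 1 for the ligand, over the 6 tests of both relative levels. The smallest exact permutation p of 4 samples against 4 is 0.0286, so none of the 6 could pass 0.05 after adjustment. Relabelling within numbers gave an exact permutation p of 0.111 for radiation, where the smallest possible is 0.0556.

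Relative to the empty spots, the plant level was highest in untreated cells. It was 3.23 and 3.06 log2 units after ligand and radiation in numbers 1 and 2, 3.55 and 3.32 after the ligand, 3.62 and 3.13 after radiation, and 3.78 and 3.87 in untreated cells. Neither untreated sample overlapped with any treated one. The mean difference from untreated cells was -0.68 after both treatments, -0.39 after the ligand and -0.46 after radiation. With 2 samples against 2 the smallest two-sided exact permutation p is 0.333, so no p is given for these pairs. Within the numbers the difference of both treatments from untreated was -0.56 in number 1 and -0.81 in number 2. That of the ligand was -0.23 and -0.55, and that of radiation -0.16 and -0.75.

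In the comparisons of 4 samples with 4, these differences did not pass. Irradiated samples averaged 3.26 ± 0.25 and samples without radiation 3.63 ± 0.25 (SD, n = 4 each), a difference of -0.37 with an exact permutation p of 0.0857 and an adjusted p of 0.514. Within the numbers it was -0.24 in number 1 and -0.50 in number 2. Ligand samples averaged 3.29 ± 0.20 and samples without ligand 3.60 ± 0.33 (SD, n = 4 each), a difference of -0.31 with an exact permutation p of 0.171 and an adjusted p of 0.514. It was -0.31 in either number. The interaction was 0.16 (exact permutation p = 0.714, adjusted p = 0.857) and had opposite signs in the numbers, at -0.16 in number 1 and 0.48 in number 2.

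The 2 terms of this ratio moved differently in the 2 numbers. In number 1 the median empty spot, as the geometric mean of the letters, was 32.5 after ligand and radiation, 29.2 after the ligand, 24.6 after radiation and 24.8 in untreated cells. The plant level there was 304 after ligand and radiation, 342 after the ligand, 302 after radiation and 341 in untreated cells. In number 2 the empty spots were at 18.3, 35.4, 16.9 and 28.4 in the same order, and the plant level at 153, 354, 148 and 416. Samples with the ligand alone thus had brighter empty spots than untreated cells in both numbers, while the plant level was lower only in number 2. In irradiated samples of number 2 both were lower, the plant level more so. The part of array brightness in these differences was not tested.

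Single sequences were tested in one limma fit with all human probes and controls, 39442 features in all, on arrays quantile normalized within each letter. The 13 sequences enter it as 26 entries, 1 per letter. In all 8 contrasts 0 of 26 plant entries passed at an adjusted p under 0.05, where 0% of all features passed. That share was not stable: for radiation averaged over the ligand, 246 features passed on values as deposited, with 0 of 26 plant entries. At an unadjusted limma p under 0.05 the plant count was again 0 of 26 in each contrast. The share of all features at that unadjusted level was 0.325% for the ligand against untreated, 2.79% for radiation against untreated and 2.33% for both treatments against untreated. It was 2.23% for both treatments against radiation and 2.63% for both against the ligand. It was 1.13% for the interaction, 0.827% for the ligand averaged over radiation and 4.6% for radiation averaged over the ligand. With shares this low, a count of 0 among 26 lies close to the background. With replicate number as a block the plant counts were also 0 of 26, at either level, and again 0% of all features passed at the adjusted level. The shares of all features at the unadjusted level were then 0.811% for the ligand, 5.78% for radiation and 5.63% for both treatments, each against untreated. They were 4.82% for both treatments against radiation, 6.51% for both against the ligand, 2.81% for the interaction, 2% for the ligand average and 10.2% for the radiation average. The contrasts with untreated share their untreated samples.

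The plant differences were narrow beside those of all features. For radiation averaged over the ligand they ran from -0.27 to 0.24 log2 units with a standard deviation of 0.11, against 0.44 over all features. Their median was 0.03, against -0.02 over all features. After radiation 20 of 26 entries (76.9%) were higher, against 47.7% of all features. Each of the 13 sequences counts once per letter there, on the same samples. With 1 sample left out the count ran from 13 to 19. On values as deposited, where the median of all features was itself -0.84, the plant median was -0.75 and 0 of 26 entries were above 0. The plant median was above that of all features under both scalings. For the ligand averaged over radiation the plant differences ran from -0.14 to 0.10 with a standard deviation of 0.06, against 0.25 over all features. Here 12 of 26 entries (46.2%) were higher, against 46.5% of all features. A plant entry averages 16 copies and a probe is a single spot, and the median standard error of a plant difference was 0.15 against 0.22 over all features in both of these contrasts.

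The widest differences among the sequences did not pass. After radiation, averaged over the ligand, obsaracontrol#012 had a log2 difference of -0.27 on letter A arrays and of -0.17 on letter B arrays, and obsaracontrol#013 had 0.02 and 0.24. The smallest limma adjusted p of any plant entry in that contrast was 0.808, for obsaracontrol#013 on letter B. For the ligand, averaged over radiation, obsaracontrol#005 had -0.14 on letter A and -0.03 on letter B, and obsaracontrol#007 had -0.11 and -0.03.

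Single copies of a sequence on an array were more spread than the sequence means were. Each sequence mean averages up to 16 copies, and averaging alone narrows its spread. The spread of copies and that of sequence means are therefore not like for like. Whether the sequences differed beyond the scatter of their copies was not tested. The median standard deviation among the 16 copies ran from 0.52 to 0.95 log2 units over the arrays. It was 0.64 on letter A and 0.72 on letter B over all sequences and arrays, and 0.59 and 0.68 after each spot was set against the probes of its run. The largest was that of obsaracontrol#009, with a median of 1.11, and the smallest that of obsaracontrol#010, at 0.50. Those 2 sequences were picked here after their values were seen, as were the single spots named next.

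The deviation of a copy from its sequence mean recurred at the same spot from array to array. On letter A the deviations of the 208 copies correlated between any 2 arrays at 0.64 to 0.88 (Pearson, 28 pairs, median 0.78), and on letter B at 0.47 to 0.89 (median 0.64). The arrays of a pair share the print layout, and the copies of a sequence are not independent. On letter A 101 of 208 copies lay on one side of their sequence mean on all 8 arrays, and on letter B 94 of 208. For instance, obsaracontrol#002-r7 on letter A ran from 949 to 4174 intensity units and was above its sequence mean on 8 of 8 arrays. At the low end, obsaracontrol#009-r6 on letter B was between 13 and 60 on the 7 arrays where it was measured and not detected on the eighth, within the range of empty spots. On letter A the copy with the same number was between 135 and 366.

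Some copies were far from the others on single arrays. The brightest plant spot of all, obsaracontrol#003-r7 on the letter B array of number 1 after the ligand, had 47129 intensity units. The same spot had 123 to 392 on the other 7 arrays of the letter, and the other copies of that sequence on that array had 118 to 861. On the letter B array of number 2 after ligand and radiation, obsaracontrol#013-r9 had 3490, against 47 to 163 at the same spot on the other arrays. The lowest plant spot was obsaracontrol#011-r2 on the letter B array of number 1 after radiation, at 9.5. That spot was low throughout, below its sequence mean on 8 of 8 arrays, with 16.2 to 197 on the other 7. Another copy in the same run, obsaracontrol#011-r1, had 13.5 on that array and 73.3 to 654 on the others. Copy values more than 2 log2 units from their sequence mean numbered 24 of 1664 on the letter A arrays and 59 of 1662 on those of letter B.

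The letters differed in how far the plant controls stood above the empty spots. On letter A the difference was 3.72 ± 0.37 log2 units and on letter B 3.16 ± 0.28 (SD, n = 8 samples each). Letter A was higher in 8 of 8 samples, by 0.09 to 0.95, with a two-sided exact sign-flip permutation p of 0.0078, in a comparison chosen after the values were seen. Relative to the median probe of the same array the letters were close, at -0.65 ± 0.13 on A and -0.61 ± 0.12 on B (SD, n = 8 each; exact permutation p = 0.109). Of the 208 plant spots on letter B, 204 occupied a position that held the same sequence on letter A.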

How the data were processed

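Per the file headers, a deposited file lists spot identifiers and a value for 1 array. The values deposited are linear intensities, and some spots are listed as not detected. How the slides were scanned, quantified, background-corrected or scaled is not given in the sources used here. Treatments, numbers and letters came from the sample titles. Intensities were put on the log2 scale without offset or background correction, and spots not detected were treated as missing. Copies were averaged per sequence and array, sequences per array, and letters per sample.

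Exact two-sided permutation tests ran over samples, with Benjamini-Hochberg adjustment over 6 treatment tests. Features (probes and control sequences) were fitted per letter in limma 3.58.1 (R 4.3.3; lmFit, eBayes) on 8 arrays, after quantile normalization within the letter. P-values were adjusted over both letters. Features missing on over 1 array or on all arrays of a group were left out (4 features). Deviations of same-numbered arrays correlated at 0.12 or more (all features) between any 2 treatments, so the shared numbers of the titles were taken as pairs for the alternative fits with a replicate block. The tests in the text have no block unless stated. The fitting was checked on simulated data.

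Members and tests were chosen with earlier results of these data known. The number of arrays limits the precision. By the rule for named sequences, the 2 brightest, the 2 dimmest, any called sequence and the 2 widest radiation and ligand differences were given in full. Alternatives covered copies, sequences, letters, offset, normalization, filters, the replicate block and left-out samples.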

Additional observations from a re-analysis of the deposited data

How the results depend on the processing

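The plant level above the empty spots ran from 2.15 to 3.72 log2 units over the 7 alternatives that kept all samples, lowest with the offset of 50 and highest on letter A, at an exact permutation p of 0.0078 in each. The 10 refits without 1 sample or 1 number gave 3.35 to 3.54, and -0.74 to -0.53 relative to the median probe. With 1 number alone the exact permutation p of the 4 samples cannot go below 0.125. Set against the 10th percentile of the probes, chosen after the data were seen, the plant level was 0.29 log2 units higher in place of lower than the probes. The median share of probes above the floor, 26.9% at the 95th percentile of the plant spots, was 80.7%, 59.9% or 99.7% with the floor at the median plant spot, the brightest sequence or the empty spots.

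With so few samples no treatment test could pass after adjustment in any refit, so the lack of calls says nothing about stability. Some signs turned. The ligand average relative to probes was -0.0333 with the median over copies, -0.0174 on letter A, -0.0011 against probes of the same run, -0.0055 against the 10th percentile and -0.0010 without obsaracontrol#012. It ran from -0.0500 to 0.0442 with samples left out. The interaction relative to probes was -0.0437 with the median over copies, -0.0323 with the median over sequences and -0.0497 against the 10th percentile. With samples left out it ran from -0.0240 to 0.17, and relative to empty spots from -0.16 to 0.48. The cause of these turns was not tested.

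With the replicate block, relabelling within numbers gave an exact permutation p of 0.111 for radiation relative to empty spots, where it was 0.0857 without the block, and 0.167 for the ligand. Relative to probes it gave an exact permutation p of 0.111 for radiation, against 0.543 without the block (adjusted 0.333 and 0.857). This relabelling cannot go below 0.0556, so it could make no call. Plant calls by limma were 0 in 8 contrasts under all 16 alternatives, also at an unadjusted p under 0.05. Calls over all features ran up to 246 in a contrast on values as deposited, against 0 in every contrast with all samples and quantile normalization. A refit without 1 sample leaves a treatment with 1 sample, so its calls over all features are not given.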
